A study of Danio rerio with 6 samples.

Results

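The genes described here are 72 zebrafish genes whose RNA was lower in *tulp1*-dKO heads than in wt heads. Their names fall outside a set of left-out families, chiefly of photoreceptor and clock genes. They were chosen from the expression values themselves. A gene was taken when its lowest wt value was at least 5 TPM and at least 2 times its highest *tulp1*-dKO value, and 111 of the 32520 listed genes met this rule. TPM, the transcripts of a gene per fixed total of transcripts, takes account of gene length and brings all libraries to a common sum. Of the 111 genes, 39 had names beginning with 1 of 32 stems that were left out, such as those of opsins, transducins, cyclic nucleotide phosphodiesterases, arrestins, kinases of the photoresponse, retinoid enzymes and clock genes, and the other 72 are the lower genes described below. RNA was sequenced from dissected heads of AB strain larvae at 4 days post-fertilization (dpf), in 3 samples from wt and 3 samples from *tulp1*-dKO zebrafish. In *tulp1*-dKO zebrafish both homologs of the human gene *TULP1*, *tulp1a* and *tulp1b*, carry CRISPR/Cas9 frameshift mutations, and the line was made by crossing 1 mutant line of each gene. The wt samples carry neither mutation, and the labels name no treatment for either group. The mRNA of both targeted genes was reduced in all *tulp1*-dKO samples, *tulp1a* at 25.3, 24.98 and 23.7 TPM in wt heads and 16.01, 14.4 and 15.8 TPM in *tulp1*-dKO heads, and *tulp1b* at 13.1, 11.9 and 9.77 TPM in wt against 2.71, 2.01 and 2.37 TPM in *tulp1*-dKO. Here and below, 3 values in a row are those of samples 1, 2 and 3 of a group, and wt comes first where groups are not named again. TPM values hold no read depth, so the spread between the 3 samples is the measure of error. Whether the 3 samples of a group came from separate clutches is not given in the sources used here.

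TULP1 belongs to the tubby-like proteins and acts in the photoreceptor cell, where it takes part in moving proteins from the inner segment, the site of their synthesis, to the outer segment, the modified cilium that captures light. Photoreceptors have a high energy demand, met by glucose taken up from the surroundings, glycolysis and densely packed mitochondria, and they pass energy along the cell as creatine phosphate. At their other end they release glutamate continuously at ribbon synapses. Calcium signalling and complexins act on this release, and glutamate transporters remove glutamate from the extracellular space. Around the inner and outer segments lies the interphotoreceptor matrix, which is rich in hyaluronan and proteoglycans.

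All head tissues contribute to these libraries. Listed markers of brain, lens, retinal pigment epithelium, pineal gland, liver, exocrine pancreas, muscle, erythrocytes, microglia and cartilage were present in all 6 samples as summed levels. Of the 67 marker genes tested in these 10 lists, 0 were called lower and 0 higher with limma (9 had an unadjusted p no higher than 0.05). Over all genes, 0.96% were called lower and 0.364% higher, so a count of 0 among 67 does not show that these tissues were unchanged. The share of all genes with such an unadjusted p was not counted. Counts at that p, here and below, therefore have no background beside them. A call here needs a 2-fold difference or more together with an adjusted p no higher than 0.05, in a limma fit of log2(TPM + 0.1) with Benjamini-Hochberg adjustment. The 7 listed photoreceptor markers summed to 11305 to 13510 TPM across wt samples and 2356 to 4426 TPM across *tulp1*-dKO samples. In RNA from whole heads, fewer cells of a type and less RNA per cell cannot be told apart, and this holds for every value below.

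The 72 lower genes summed to 2572, 2599 and 2864 TPM in wt compared with 605, 597 and 546 TPM in *tulp1*-dKO. The 39 genes of the left-out families summed to 14318, 14852 and 13513 TPM in wt heads and 3857, 3501 and 2061 TPM in *tulp1*-dKO heads. Mean wt levels of the 72 genes ran from 6.45 TPM for *ndufs8b* to 158 TPM for *nme2a*, with a median of 21.6 TPM, while the median of the family genes was 57.0 TPM. The *tulp1*-dKO mean was 21.6% of the wt mean at the median of the 72 genes and 22.2% at the median of the 39 family genes. On the log2(TPM + 0.1) scale the median difference was −2.24 (range −8.61 to −1.25) for the 72 genes and −2.23 (range −3.63 to −1.33) for the family genes, against 0.05 over all 22824 genes tested. The range was therefore wider outside the families. Its lower end was that of *dap1b*, listed at 0, 0.78 and 0 TPM in *tulp1*-dKO, and so depends on the 0.1 TPM added to each value. Of the 72 genes, 17 were below 10% of the wt mean, 25 between 10% and 25%, and 30 at 25% or more, while the 39 family genes divided into 1, 23 and 15. By limma, 64 of the 72 genes were called lower, where 0.96% of all genes tested were. The rule used the same contrast, so this count describes the choice of genes and was not read as a result. The rule itself was met by 0.785% of the 14137 genes with every wt value at 5 TPM or more. Its mirror image, a lowest *tulp1*-dKO value of at least 5 TPM and at least 2 times the highest wt value, was met by 32 genes, 0.223% of the 14346 genes that could have met it.

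**Figure D1:**
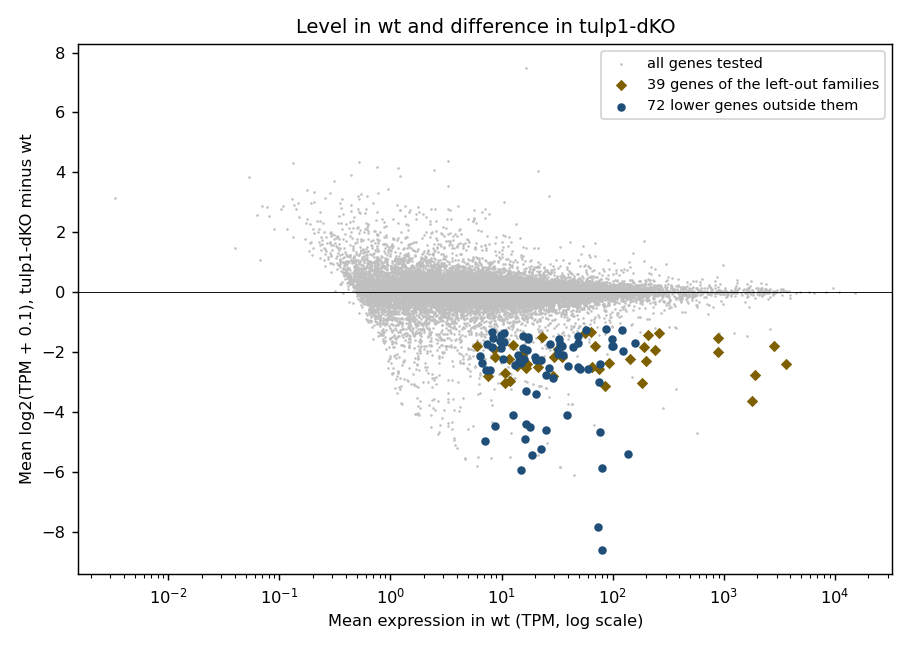
Mean wt expression (TPM, log axis) against the difference of mean log2(TPM + 0.1) between *tulp1*-dKO and wt (vertical axis) for every gene tested (grey points), the 39 family genes (diamonds) and the 72 lower genes (circles). The lower genes sit between 6.45 and 158 TPM in wt, with differences from −1.25 down to −8.61, and the family genes lie between −1.33 and −3.63.

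In both sets, *tulp1*-dKO sample 3 had the lowest median. Relative to each gene's wt mean, the median of the 72 genes was −2.02, −2.07 and −2.25 on the log2 scale in *tulp1*-dKO samples 1, 2 and 3, and the median of the family genes was −1.93, −1.98 and −2.60. The lowest *tulp1*-dKO value fell in sample 3 for 35 of the 39 family genes. Among the 72 lower genes it fell in sample 1 for 25 genes, in sample 2 for 12 and in sample 3 for 32, with 3 ties. Over all genes tested these counts were 6672, 7667 and 8139, with 346 ties. Among the 17 lower genes below 10% of wt, sample 1 was the lowest for 10, sample 2 for 1 and sample 3 for 3, and the other 3 were tied at 0 in a pair of samples. Among the other 55, sample 3 was the lowest for 29. These are counts of genes from the same libraries, and no test was made of them. The highest wt value was over 2 times the lowest in 12 of the 72 genes, in 2 of the 39 family genes and in 3153 of all 22824 genes tested. The last set is not a like one, since it needed a mean of 0.5 TPM and the others needed every wt value at 5 TPM or more. These shares were not tested against each other.

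**Figure D2:**
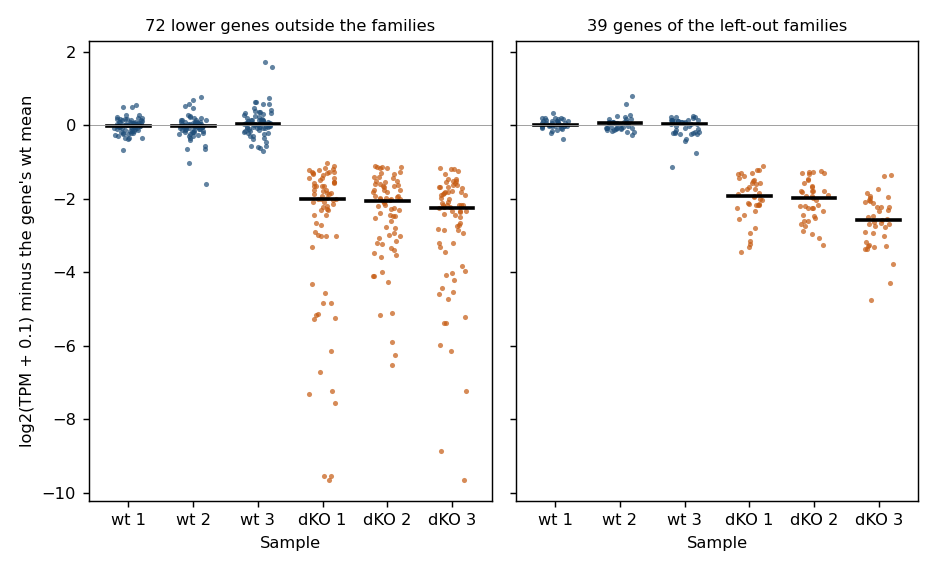
Each point is a gene in a sample, placed at its log2(TPM + 0.1) minus the mean of that gene over the 3 wt samples (vertical axis), for the 72 lower genes (left) and the 39 family genes (right), with black bars at the sample medians. The bars of the *tulp1*-dKO samples stand at −2.02, −2.07 and −2.25 on the left and at −1.93, −1.98 and −2.60 on the right, and individual genes reach further down on the left.

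Of the 72 genes, 40 carry a gene symbol with a description, and 7 of them act in energy or nucleotide metabolism. All 7 kept between 21.5% and 42.5% of their wt level, with a median of 30.6%. *nme2a*, a nucleoside diphosphate kinase that moves phosphate between nucleotides, had the highest wt level of the 72 genes, 156, 161 and 157 TPM, against 53.8, 48.8 and 42.5 TPM in *tulp1*-dKO. *ckmt2b*, a mitochondrial creatine kinase that forms creatine phosphate from ATP, was at 116, 122 and 127 TPM in wt against 51.5, 48.4 and 52.5 TPM in *tulp1*-dKO, a 2.39-fold lower mean. Samples of both groups were close together, and the group means of *ckmt2b* were 121 ± 5.46 and 50.8 ± 2.14 TPM (SD, n = 3 samples each). *eno1b*, a form of the glycolytic enzyme enolase, had 85.1, 85.7 and 89.5 TPM across wt samples and 42.4, 38.4 and 29.9 TPM across *tulp1*-dKO samples, and met the rule narrowly, with *tulp1*-dKO sample 1 closest to the limit. *slc2a1a*, a glucose transporter of the cell membrane, was at 34.7, 34.8 and 36.04 TPM in wt compared with 11.9, 7.65 and 10.8 TPM in *tulp1*-dKO. *pdha1b*, the alpha subunit of the pyruvate dehydrogenase enzyme that links glycolysis to the mitochondrial citric acid cycle, was at 25.97, 32.6 and 37.4 TPM in wt heads and 12.9, 9.25 and 4.65 TPM in *tulp1*-dKO heads. Its *tulp1*-dKO values spread more widely than those of *ckmt2b*, with sample 3 the lowest. *ndufs8b*, a subunit of the first complex of the respiratory chain, had the lowest wt level of the 72 genes, 6.91, 6.34 and 6.10 TPM, and 1.29, 1.61 and 1.26 TPM in *tulp1*-dKO. *uckl1a*, which encodes a uridine-cytidine kinase-like protein of nucleotide salvage, was at 7.30, 6.90 and 10.7 TPM and 2.67, 3.27 and 2.46 TPM. Sample 3 was the lowest *tulp1*-dKO sample for 5 of these 7 genes and sample 2 for the other 2.

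The 5 genes of glutamate transport, calcium signalling and vesicle release stood at a median of 19.2% of wt. *slc1a2a*, a membrane transporter that removes glutamate from the extracellular space, was at 45.1, 38.4 and 36.4 TPM in wt against 9.67, 9.05 and 4.25 TPM in *tulp1*-dKO. *slc1a8b*, of the same transporter family, was at 19.8, 18.4 and 11.7 TPM across wt samples and 1.92, 1.85 and 1.04 TPM across *tulp1*-dKO samples, the lowest share of wt in this group at 9.65%. Both transporters were lowest in *tulp1*-dKO sample 3, and wt sample 3 was the lowest wt sample for both. *camkk1b* encodes a kinase that activates calcium/calmodulin-dependent protein kinases, and *camk1ga* encodes a kinase of that class. In wt, *camkk1b* was at 27.5, 24.2 and 23.99 TPM and *camk1ga* at 31.2, 34.8 and 29.96 TPM, and in *tulp1*-dKO they were at 5.42, 3.61 and 2.42 TPM and 8.62, 7.88 and 6.18 TPM. The order of the *tulp1*-dKO samples was the same for both, with sample 1 the highest and sample 3 the lowest. *cplx4c*, a complexin, belongs to a family that binds the membrane fusion machinery, and in the mouse retina complexin 4 is found at ribbon synapses. Its values were 9.08, 8.50 and 6.80 TPM in wt compared with 1.96, 2.59 and 2.10 TPM in *tulp1*-dKO.

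Among the genes with a symbol, the largest group was that of extracellular matrix and cell surface genes, with 10 members and a median of 17.0% of wt. *impg1b*, a proteoglycan named for the interphotoreceptor matrix, was at 13.9, 13.6 and 18.8 TPM in wt heads and 5.58, 3.71 and 3.29 TPM in *tulp1*-dKO heads. *clul1*, a secreted clusterin-like protein described as retinal, was at 25.9, 29.1 and 31.7 TPM in wt against 5.69, 3.46 and 3.01 TPM in *tulp1*-dKO. *HAPLN1* (ENSDARG00000102395), a link protein that ties proteoglycans to hyaluronan, was at 11.95, 14.1 and 18.7 TPM across wt samples and 2.61, 2.63 and 3.19 TPM across *tulp1*-dKO samples. All of these had higher values in wt sample 3 than in the other wt samples. *edil3b*, a secreted matrix protein with discoidin domains, had the highest wt level of the group after *csmd1a*, 58.2, 52.8 and 70.4 TPM, and 9.30, 12.9 and 8.25 TPM in *tulp1*-dKO. Heparan sulfate chains were represented by *gpc6a*, a glypican that carries them on the cell surface, and *hs3st3b1a*, a sulfotransferase that modifies them. *gpc6a* was at 30.8, 20.6 and 29.01 TPM in wt compared with 5.37, 3.34 and 5.14 TPM in *tulp1*-dKO, and *hs3st3b1a* at 14.1, 16.9 and 15.7 TPM and 6.77, 6.93 and 3.76 TPM. *thy1*, a surface glycoprotein of neurons and other cells, was at 17.4, 13.6 and 20.5 TPM in wt and, with a smaller spread, at 6.16, 5.73 and 6.03 TPM in *tulp1*-dKO.

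The other 3 surface genes were each below 10% of wt. *entpd3*, an enzyme that breaks down extracellular nucleotides, was even in wt at 16.9, 16.3 and 15.7 TPM and stood at 0.36, 0.85 and 0.29 TPM in *tulp1*-dKO, 3.07% of wt. *cntn3a.2*, a contactin of the neuronal cell surface listed as a tandem duplicate, had 22.8, 9.85 and 16.9 TPM in wt heads and 1.99, 0.16 and 0.63 TPM in *tulp1*-dKO heads. *csmd1a*, a large membrane protein with CUB and sushi domains, ranged in wt from 48.0 TPM in sample 2 to 115 TPM in sample 3, with 76.6 TPM in sample 1, and in *tulp1*-dKO from 0.37 TPM in sample 1 to 4.51 TPM in sample 3, with 0.89 TPM in sample 2. Its mean was 41.5 times lower in *tulp1*-dKO, and 32.4 times lower than the mean of the 2 other wt samples when wt sample 3 was left out. The rank order of the *tulp1*-dKO samples differed among the 3 genes.

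Signalling, cytoskeletal and protein turnover genes numbered 9. *lztfl1*, whose mammalian product binds the BBSome, a complex that carries membrane proteins in and out of cilia, was at 98.4, 89.1 and 108 TPM in wt against 25.8, 31.3 and 27.1 TPM in *tulp1*-dKO. *znrf2b*, a ubiquitin ligase, was at 112, 109 and 81.6 TPM across wt samples and 40.1, 17.1 and 33.97 TPM across *tulp1*-dKO samples. *faimb*, named for the inhibition of Fas-induced apoptosis, was at 50.3, 45.9 and 50.6 TPM in wt compared with 15.4, 18.1 and 12.2 TPM in *tulp1*-dKO. *tent5ab*, a nucleotidyltransferase of the poly(A) polymerase type, and *pxdc1a*, a protein with a PX domain, had lower levels. *tent5ab* was at 14.7, 15.4 and 17.4 TPM in wt heads and 4.24, 3.94 and 2.08 TPM in *tulp1*-dKO heads, and *pxdc1a* at 9.73, 10.6 and 9.62 TPM and 2.27, 3.09 and 2.73 TPM. 2 genes of the group had a wide spread in wt. *frs3*, an adaptor of fibroblast growth factor receptors, was at 52.5, 17.3 and 158 TPM in wt, where sample 3 was 9.12 times sample 2, and at 6.33, 6.46 and 6.71 TPM in *tulp1*-dKO. *diaph3*, a formin that nucleates actin filaments, was at 20.8, 16.2 and 109 TPM in wt against 5.99, 6.20 and 5.14 TPM in *tulp1*-dKO. Without wt sample 3 the wt mean was 5.37 times the *tulp1*-dKO mean for *frs3*, in place of 11.7, and 3.20 times for *diaph3*, in place of 8.41.

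The nuclear proteins were *pcnp*, *rnps1*, *hist1h4l* and *smc1a*. *pcnp*, a small nuclear protein with PEST sequences, was at 59.6, 57.5 and 56.6 TPM across wt samples and 21.3, 26.4 and 24.3 TPM across *tulp1*-dKO samples. *rnps1*, a component of the exon junction complex left on spliced mRNA, was at 19.2, 12.8 and 10.5 TPM in wt compared with 4.24, 2.37 and 3.09 TPM in *tulp1*-dKO. The entry *hist1h4l* (ENSDARG00000111753) encodes histone H4 and was at 15.1, 17.4 and 7.62 TPM in wt heads and 3.42, 0.95 and 3.55 TPM in *tulp1*-dKO heads. It was the only 1 of 24 entries listed under that name to meet the rule, and every other entry was below 10 TPM in wt. Summed over the 24 entries, histone H4 transcripts of this name were at 36.6, 61.0 and 44.7 TPM in wt against 24.4, 27.3 and 28.3 TPM in *tulp1*-dKO, so that the lowest wt value was less than 2 times the highest *tulp1*-dKO value. *smc1a*, a cohesin subunit, was at 6.31, 5.82 and 9.38 TPM in wt but was listed at 0 TPM in *tulp1*-dKO samples 1 and 3 and at 1.06 TPM in sample 2.

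The other 5 genes with a symbol encode enzymes, a protease inhibitor and an immune protein. *serpina10a*, whose human counterpart is a protease inhibitor made in the liver, had wt values between 69.7 and 77.4 TPM, and the *tulp1*-dKO values were 1.99 TPM in sample 2, 0.06 TPM in sample 3 and a listing at 0 in sample 1. *gsta.2*, a glutathione S-transferase of a tandem duplicate, was at 111, 217 and 85.99 TPM across wt samples and 1.12, 6.48 and 3.31 TPM across *tulp1*-dKO samples. *miox*, an enzyme that opens the ring of inositol, was at 9.69, 12.3 and 8.95 TPM in wt compared with 1.16, 2.39 and 3.24 TPM in *tulp1*-dKO. Among the clone-named genes, *si:ch211-270n8.1*, which a gene-name table lists as *apcs*, a pentraxin whose human counterpart is a plasma protein from the liver, was at 17.4, 24.2 and 20.4 TPM in wt heads and 0.61, 2.21 and 4.44 TPM in *tulp1*-dKO heads. The heads held liver RNA in both groups. The 9 listed liver markers summed to 3698 to 5216 TPM in wt against 2480 to 6163 TPM in *tulp1*-dKO, and *serpina1* was listed at 0 in wt sample 3. By limma, 0 of the 9 were called lower and 0 higher (0 with an unadjusted p no higher than 0.05), where 0.96% and 0.364% of all genes were called. At these shares a count of 0 among 9 does not show that the liver markers were unchanged. *fabp10a*, a fatty acid binding protein of hepatocytes, was at 846, 1205 and 926 TPM across wt samples and 426, 795 and 1257 TPM across *tulp1*-dKO samples. All 9 markers were lower in *tulp1*-dKO sample 1 than in the other *tulp1*-dKO samples, as were *serpina10a*, *gsta.2*, *miox* and *si:ch211-270n8.1*. These 4 were picked after their values were seen, and sample 1 was also the lowest for 25 of all 72 lower genes. Of the same group, *endouc* and *mhc1zca* were lowest in sample 3. *serpina10a* and *gsta.2* were highest in *tulp1*-dKO sample 2, while *fabp10a* was highest in sample 3. The summed markers overlapped between the groups. The part of liver content in the values of these genes was not tested. *endouc*, a poly(U)-specific endonuclease, was at 36.7, 35.1 and 28.7 TPM in wt compared with 11.2, 9.63 and 8.95 TPM in *tulp1*-dKO, and *mhc1zca*, a class I histocompatibility gene, at 13.8, 13.96 and 15.4 TPM and 3.18, 2.82 and 2.60 TPM.

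**Figure D3:**
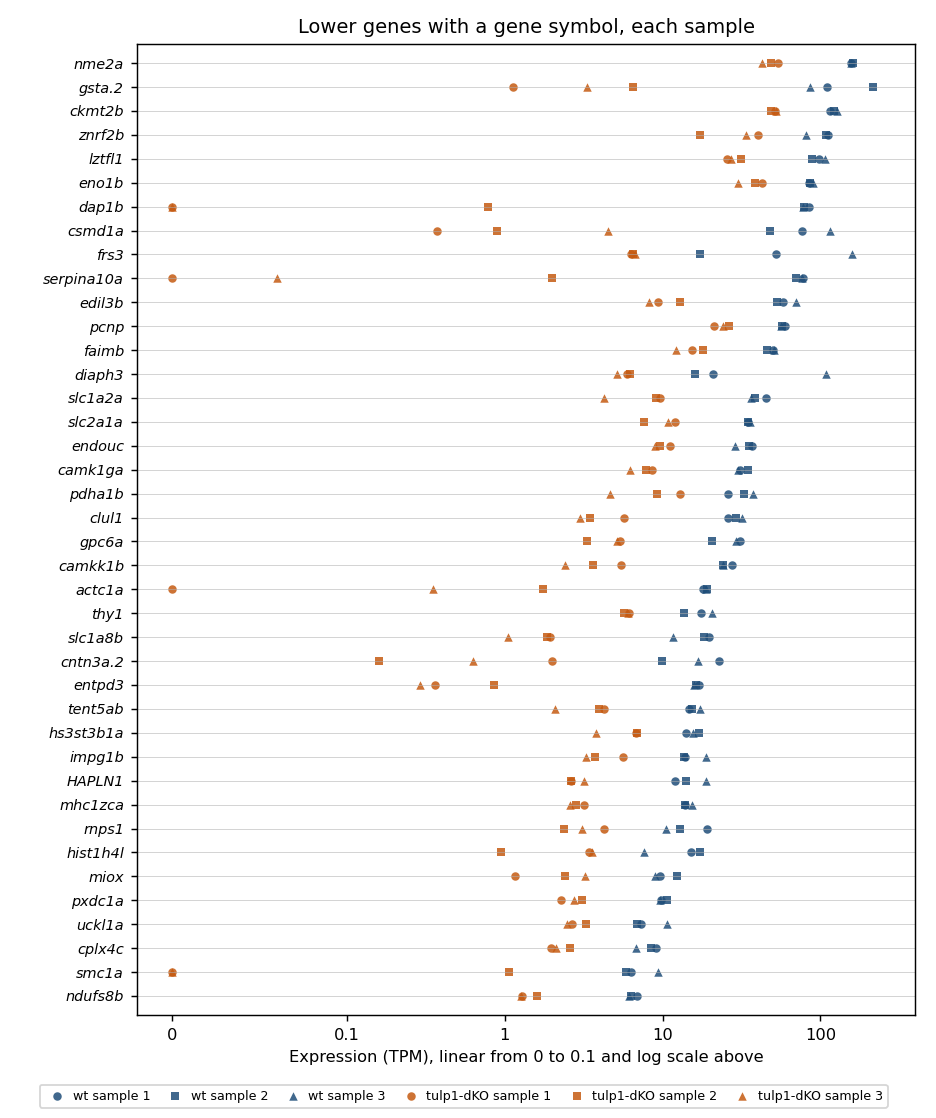
Expression (TPM, horizontal axis, linear up to 0.1 and log above) of the 40 lower genes with a gene symbol in each of the 3 wt samples (blue) and 3 *tulp1*-dKO samples (orange), ordered by wt mean. The groups do not overlap for any gene, as the rule requires, and *dap1b*, *serpina10a*, *actc1a* and *smc1a* have *tulp1*-dKO samples listed at 0, while *frs3* and *diaph3* have a wt sample 3 far above the other wt samples.

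The zebrafish genome holds many gene pairs that remain from a duplication of the whole genome, as well as tandem copies, and these offer a comparison that the rule did not use. The 24 entries named *hist1h4l*, described above, were left out of this comparison. For 31 of the other lower genes the list held 39 further entries of the same name or the same symbol stem. Of these lower genes 0 were related to each other in this way, so that no relative was set aside because it met the rule. Of the 36 relatives with enough expression to be tested, 0 were called lower and 0 higher by limma, where 0.96% of all genes were called lower and 0.364% higher. At these shares a count of 0 among 36 does not show that the relatives were unchanged. With an unadjusted p no higher than 0.05, 7 were lower and 4 higher, and the share of all genes at this p was not counted. Their median log2 difference was 0.01, close to the 0.05 of all genes, with 18 below 0 and 18 above. In 22 of the 36 cases the relative had a higher wt level per transcript length than the lower gene. Genes that share much of their sequence can also share reads, and how the counting divided those reads between near-identical copies cannot be read from TPM values.

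In energy and nucleotide metabolism the more abundant copy of several genes stayed near its wt level. *eno1a* was at 577 ± 17.9 TPM in wt heads and 545 ± 23.5 TPM in *tulp1*-dKO heads (SD, n = 3 samples each), a log2 difference of −0.08 (SE 0.06). *pdha1a* was at 148 ± 4.44 TPM in wt against 147 ± 18.6 TPM in *tulp1*-dKO, a log2 difference of −0.01 (SE 0.10), and *ndufs8a* at 151 ± 3.33 TPM and 149.5 ± 3.52 TPM, a log2 difference of −0.01 (SE 0.06). *nme2b.1* and *nme2b.2* were at 1571 and 634 TPM across wt samples and 1553 and 656 TPM across *tulp1*-dKO samples. Thus *nme2a*, *eno1b*, *pdha1b* and *ndufs8b* made up the smaller part of the transcripts of their gene pairs in wt heads. *slc2a1b*, the other copy of *slc2a1a*, was the less abundant in wt, with 14.4 ± 2.22 TPM against 16.05 ± 1.05 TPM in *tulp1*-dKO and a log2 difference of 0.16 (SE 0.14). *ckmt2a* differed from this pattern in value, at 328, 341 and 337 TPM in wt compared with 280, 237 and 207 TPM in *tulp1*-dKO, without overlap between the groups, but its log2 difference of −0.49 (SE 0.11) did not pass the adjusted threshold in limma (adjusted p = 0.0874).

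Relatives of the synaptic and calcium genes differed among themselves. *slc1a8a*, the other copy of *slc1a8b*, was at 18.5, 16.9 and 21.6 TPM in wt heads and 12.2, 10.1 and 9.29 TPM in *tulp1*-dKO heads, a log2 difference of −0.85 (SE 0.15, adjusted p = 0.0401 from limma), below the 2-fold change that a call needs, and its adjusted p ran from 0.0278 to 0.149 over 12 alternatives. *slc1a2b*, the other copy of *slc1a2a*, was at 191, 195 and 228 TPM in wt against 306, 185 and 148 TPM in *tulp1*-dKO, so the groups overlapped, with a log2 difference of −0.01 (SE 0.25). *cplx4a* and *camk1gb* were lower in value without overlap between the groups. Their log2 differences were −0.68 (SE 0.16) and −0.64 (SE 0.13), and neither passed the adjusted threshold in limma (adjusted p = 0.0908 and 0.0653). *camkk1a* had a log2 difference of 0.06 (SE 0.13).

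Among matrix and surface genes, *impg1a* was at 32.3, 28.8 and 30.5 TPM across wt samples and 25.1, 23.9 and 24.5 TPM across *tulp1*-dKO samples, a log2 difference of −0.31 (SE 0.09, adjusted p = 0.139 from limma). *hapln1a*, the hyaluronan link gene listed in lower case, was higher in value in *tulp1*-dKO, at 58.7 TPM in wt compared with 80.6 TPM in *tulp1*-dKO, and *hapln1b* was lower in value, at 59.0 and 37.6 TPM, and neither passed (adjusted p = 0.108 and 0.251 from limma). *edil3a*, *hs3st3b1b*, *cntn3a.1* and *cntn3b* had log2 differences between 0.02 and 0.14. *cntn3a.1*, the tandem partner of *cntn3a.2*, was at 8.15 ± 0.879 TPM in wt heads and 8.47 ± 0.825 TPM in *tulp1*-dKO heads. Of the relatives of signalling genes, *faima* was at 23.0 TPM in wt against 14.1 TPM in *tulp1*-dKO, a log2 difference of −0.70 (SE 0.19, adjusted p = 0.124 from limma). *znrf2a*, *pxdc1b* and *TENT5A* were low, with wt means of 2.22 to 3.06 TPM.

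**Figure D4:**
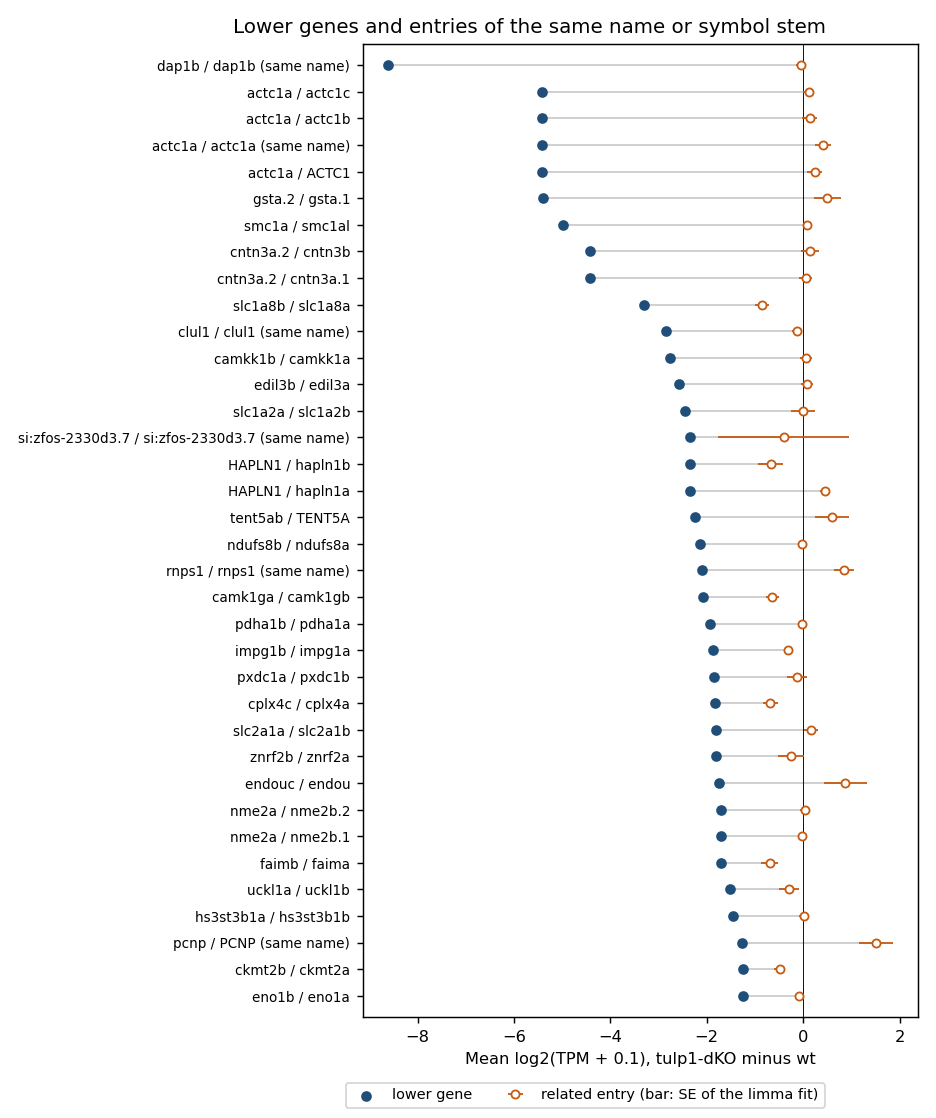
Difference of mean log2(TPM + 0.1) between *tulp1*-dKO and wt (horizontal axis) for each lower gene with a tested relative (filled circles) and each tested entry of the same name or symbol stem (open circles with the SE of the limma fit), joined by a grey line. Entries named *hist1h4l* were left out. The open circles lie between −0.85 and 1.51 with a median of 0.01, and the filled circles between −8.61 and −1.25.

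For 5 lower genes the list holds more entries under the identical name and the rule was no longer met when the entries of the name were added together. The entry of *dap1b* that met the rule (ENSDARG00000109678) stood at 77.8 to 85.2 TPM in wt, while 2 of the 3 *tulp1*-dKO samples were listed at 0 and sample 2 at 0.78 TPM. DAP1 restrains autophagy in mammalian cells. The other entry (ENSDARG00000086842) was at 163, 166 and 192 TPM across wt samples and 155, 161 and 187 TPM across *tulp1*-dKO samples, and the sum of both was 248, 245 and 270 TPM in wt compared with 155, 162 and 187 TPM in *tulp1*-dKO. *actc1a*, an actin of heart muscle, had 1 entry (ENSDARG00000076126) at 18.02, 19.1 and 18.9 TPM in wt but listed at 0, 1.75 and 0.35 TPM in *tulp1*-dKO, and another (ENSDARG00000042535) at 194, 224 and 223 TPM in wt heads and 349, 300 and 217 TPM in *tulp1*-dKO heads. The gene-name table lists the *actc1a* entry that met the rule as *actc1c*, so the shared name may not stand for 1 gene. The sum of the *actc1a* entries overlapped between the groups. The second *clul1* entry (ENSDARG00000005941) was at 32.2, 28.9 and 29.3 TPM in wt against 30.9, 26.4 and 25.4 TPM in *tulp1*-dKO, and the sum of both was 58.1, 58.0 and 61.0 TPM across wt samples and 36.6, 29.8 and 28.4 TPM across *tulp1*-dKO samples. The second *rnps1* entry (ENSDARG00000116743) moved the other way in value, at 16.0, 21.9 and 26.8 TPM in wt compared with 45.1, 37.0 and 33.1 TPM in *tulp1*-dKO, with an adjusted p of 0.0998 from limma. Its sum with the *rnps1* entry that met the rule was 35.3, 34.7 and 37.3 TPM in wt heads and 49.3, 39.3 and 36.2 TPM in *tulp1*-dKO heads, so the groups overlapped. *hist1h4l*, described above, was the fifth gene, and the gene-name table lists its entry that met the rule as *si:dkey-108k21.18*.

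A similar pair was *pcnp* and *PCNP*, 2 entries whose names differ in case alone. *PCNP* (ENSDARG00000116774) was at 24.8, 19.7 and 55.8 TPM in wt against 76.0, 93.5 and 89.7 TPM in *tulp1*-dKO, a log2 difference of 1.51 (adjusted p = 0.0942 from limma), and without wt sample 3 it was called higher, with a log2 difference of 1.96 (adjusted p = 0.00754). Over 12 alternatives its adjusted p in limma ran from 0.00754 to 0.257. The sum of *pcnp* and *PCNP* was 84.4, 77.2 and 112 TPM in wt (mean 91.3) and 97.3, 120 and 114 TPM in *tulp1*-dKO (mean 110), so the groups overlapped. *gsta.1*, the tandem duplicate of *gsta.2*, was at 268, 321 and 350 TPM in wt compared with 280, 470 and 649 TPM in *tulp1*-dKO. The sum of *gsta.1* and *gsta.2* was 379, 538 and 436 TPM in wt heads (mean 451) and 281, 477 and 652 TPM in *tulp1*-dKO heads (mean 470). The means were close, but the *tulp1*-dKO samples spread widely around theirs. *smc1al*, a relative of *smc1a* with more transcripts than it, was at 77.7 ± 3.64 TPM in wt against 82.1 ± 3.64 TPM in *tulp1*-dKO, a log2 difference of 0.08 (SE 0.08).

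The 17 genes below 10% of wt were *dap1b*, *serpina10a*, *actc1a*, *si:dkey-97a13.12*, *csmd1a*, *gsta.2*, *si:ch1073-190k2.1*, *entpd3*, *zgc:171679*, *si:ch73-236c18.5*, *si:ch211-261n11.7*, *smc1a*, *cntn3a.2*, *si:dkey-56f14.4*, *FP074902.2*, *frs3* and *slc1a8b*. Their median was 3.82% of wt, and 5 of them had a *tulp1*-dKO sample listed at 0. Their summed wt level was 666 TPM, and their summed *tulp1*-dKO level was 23.1 TPM. In the 39 left-out family genes only 1 was below 10% of wt and 0 had a *tulp1*-dKO sample at 0. The highest wt value of *actc1a*, *entpd3* and *si:dkey-56f14.4* was 1.06 to 1.08 times the lowest, while that of *gsta.2* was 2.52 times and that of *frs3* 9.12 times the lowest.

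The other 32 of the 72 genes carry a clone or locus name in the file. For 6 of them a gene-name table gives a symbol. *si:dkey-56f14.4*, listed there as *fxyd7*, a member of the family of small membrane proteins that regulate the sodium pump, was at 39.5, 37.9 and 40.3 TPM across wt samples and 1.85, 2.34 and 2.42 TPM across *tulp1*-dKO samples. Its highest wt value was 1.06 times its lowest. *si:ch211-261n11.7*, listed as *tnfrsf14*, a receptor of the tumour necrosis factor family, was at 17.7, 25.5 and 10.96 TPM in wt compared with 0.34, 1.43 and 0.54 TPM in *tulp1*-dKO. *FP074902.2*, listed as the non-coding RNA *lnc.85*, was at 12.1, 12.1 and 14.2 TPM in wt heads and 0.35, 1.25 and 0.59 TPM in *tulp1*-dKO heads. The others were *si:ch211-270n8.1* (*apcs*), *si:ch211-22d5.2*, listed as the kinase gene *nim1kb*, at 8.89, 9.80 and 10.4 TPM and 3.71, 2.24 and 3.42 TPM, and *si:zfos-2330d3.7*, listed as *mfap4.8*, at 5.67, 6.68 and 7.48 TPM and 1.55, 0.86 and 1.31 TPM.

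A further 23 clone-named genes have no function in the sources used here, and their median was 26.1% of wt. *si:ch211-113d22.2*, a protein-coding gene, had the highest wt level among them, 118, 123 and 134 TPM, against 39.6, 32.04 and 26.6 TPM in *tulp1*-dKO. *si:dkey-193p11.2*, a long non-coding RNA, was at 109.8, 98.6 and 87.9 TPM in wt against 22.8, 36.8 and 43.1 TPM in *tulp1*-dKO, with sample 1 the lowest. *si:ch211-132b12.7*, *si:dkeyp-57d7.4* and *si:ch211-117m20.4* were alike in that sample 3 stood well below the other *tulp1*-dKO samples. *si:ch211-132b12.7* was at 55.4, 51.6 and 44.9 TPM across wt samples and 14.7, 14.1 and 2.88 TPM across *tulp1*-dKO samples, *si:dkeyp-57d7.4* at 41.1, 47.9 and 42.6 TPM and 18.1, 16.3 and 6.04 TPM, and *si:ch211-117m20.4* at 19.3, 15.2 and 16.01 TPM and 7.31, 7.41 and 1.44 TPM. *si:dkey-28i19.1* was at 51.1, 50.2 and 45.2 TPM in wt compared with 19.6, 12.7 and 21.7 TPM in *tulp1*-dKO, and *CABZ01089777.1* at 30.2, 32.0 and 44.2 TPM and 10.2, 8.71 and 6.05 TPM. The largest falls of this group were seen in 4 genes below 10% of wt. *zgc:171679* was at 21.4, 20.8 and 34.1 TPM in wt heads and 0.60, 1.34 and 0.97 TPM in *tulp1*-dKO heads, and *si:dkey-97a13.12* at 22.7, 30.98 and 14.1 TPM and 0.81, 0.52 and 0.24 TPM. *si:ch73-236c18.5* was at 8.89, 7.56 and 9.73 TPM in wt against 0.13, 0.66 and 0.26 TPM in *tulp1*-dKO, and *si:ch1073-190k2.1* was at 12.6, 13.8 and 18.99 TPM in wt but listed at 0 TPM in samples 1 and 3 and at 1.31 TPM in sample 2 of *tulp1*-dKO. The mean wt level of the other clone-named genes of this set lay between 7.19 and 27.6 TPM.

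**Figure D5:**
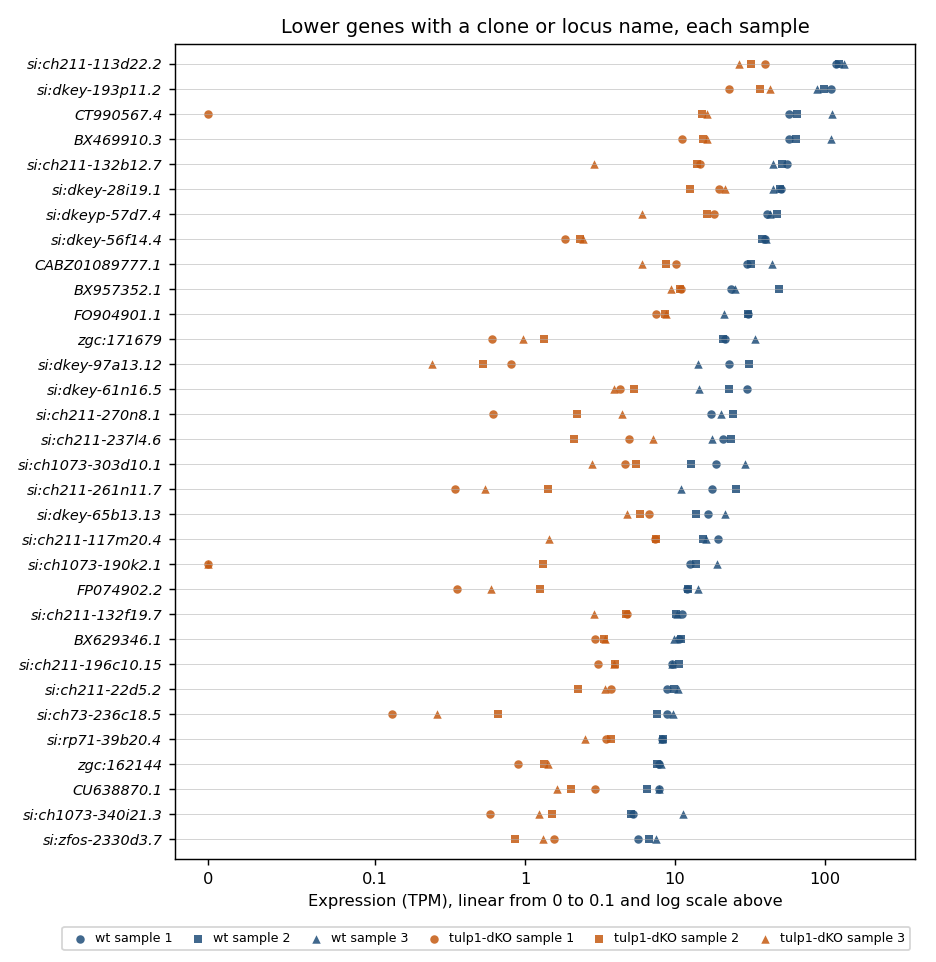
Expression (TPM, horizontal axis, linear up to 0.1 and log above) of the 32 lower genes with a clone or locus name in each of the 3 wt samples (blue) and 3 *tulp1*-dKO samples (orange), ordered by wt mean. *CT990567.4* and *si:ch1073-190k2.1* have *tulp1*-dKO samples listed at 0, and *si:dkey-56f14.4* shows tight groups at 39.3 and 2.2 TPM.

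The last 3 entries, *BX469910.3*, *CT990567.4* and *BX957352.1*, are annotated as 5S ribosomal RNA in the gene-name table. This RNA is part of the large ribosomal subunit and is made from many near-identical gene copies, so reads cannot be assigned to a copy with certainty. *BX469910.3* was at 57.9, 63.9 and 109 TPM across wt samples and 11.1, 15.4 and 16.3 TPM across *tulp1*-dKO samples, and *CT990567.4* at 57.9, 64.8 and 111 TPM in wt but listed at 0, 15.1 and 16.3 TPM in *tulp1*-dKO. The 2 entries had the same value in wt sample 1 and in *tulp1*-dKO sample 3 and cannot be counted as independent measurements. *BX957352.1* was at 23.6, 49.5 and 25.2 TPM in wt, where sample 2 was about 2.10 times sample 1, and at 10.9, 10.7 and 9.41 TPM in *tulp1*-dKO.

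Photoreceptor genes outside the left-out families were counted from a list of 79 names, 70 of which were found. Of the 71 entries tested, 5 were called lower (7.04%, against 0.96% of all genes) and 0 higher. An unadjusted p no higher than 0.05 was found for 32, and the share of all genes at this p was not counted. The lower genes *slc1a8b*, *impg1b* and *cplx4c* account for 3 of the 5 and were chosen by the same contrast. Of the 68 entries that did not meet the rule, 2 were called lower, their median log2 difference was −0.19 against 0.05 over all genes, and 42 were below 0. *lrit1b*, a leucine-rich repeat protein of the retina, was at 61.6, 70.5 and 51.2 TPM in wt compared with 26.7, 19.6 and 13.0 TPM in *tulp1*-dKO, a log2 difference of −1.67 (SE 0.26, adjusted p = 0.0293 from limma). It missed the rule by a small margin, its lowest wt value being 1.91 times its highest *tulp1*-dKO value.

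*fscn2a*, a retinal fascin that bundles actin, was at 9.36, 8.13 and 8.36 TPM in wt heads and 5.02, 3.12 and 3.08 TPM in *tulp1*-dKO heads, a log2 difference of −1.22 (SE 0.21, adjusted p = 0.0394 from limma). Leaving out 1 sample ended the call of *lrit1b* in 4 of 6 cases, with adjusted p from limma of 0.118, 0.0978 and 0.0525 without wt samples 1, 2 and 3 and 0.105 without *tulp1*-dKO sample 2. The call of *fscn2a* ended without wt samples 1, 2 and 3 (adjusted p = 0.151, 0.109 and 0.082 from limma) and without *tulp1*-dKO samples 2 and 3 (0.139 and 0.104). It also ended with the replicate number as a block (adjusted p = 0.0758 from limma) and with no filter on low values (0.0531). *cabp5b*, a calcium-binding protein of retinal neurons, was at 34.4, 35.2 and 16.9 TPM in wt against 11.2, 8.55 and 10.1 TPM in *tulp1*-dKO and was not called (adjusted p = 0.0574 from limma), but it was called without wt sample 3, with a log2 difference of −1.81 (adjusted p = 0.00754). Its adjusted p in limma ran from 0.00754 to 0.193 over 12 alternatives. *syt5a*, a synaptotagmin, and *slc25a3a*, a mitochondrial phosphate carrier, had log2 differences of −0.98 and −0.92 with adjusted p of 0.0241 and 0.024 from limma, just short of a 2-fold change. *syt5a* was called without wt sample 2 (log2 difference −1.09) and *slc25a3a* without *tulp1*-dKO sample 1 (log2 difference −1.05), and their adjusted p ran up to 0.107 and 0.102 over 12 alternatives in limma. *kcnv2a*, a potassium channel subunit of photoreceptors, had a log2 difference of −1.20 (adjusted p = 0.0506 from limma, 0.04 to 0.163 over 12 alternatives). The genes named so far from this list were all lower and were chosen after their values were seen. Of the 68 entries that did not meet the rule, 42 were below 0. Others were higher in value without a call, such as *rd3*, *crb2b* and *prdm1a*, with log2 differences of 0.50, 0.74 and 0.51. *crx*, *mak*, *aipl1* and *reep6* had log2 differences from 0.02 to 0.13. In the shorter list of photoreceptor synapse genes, 2 of 22 entries tested were called lower, *cplx4c* and *lrit1b*, and 0 higher, where 0.96% of all genes were called lower. Most of its entries are also in the longer list, where both of these calls were already counted, so it is not a separate result. *cplx4c* was chosen by the same contrast, and 1 of the 21 entries that did not meet the rule was called.

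Several of the lower genes lay close to the limits of the rule. For 15 of the 72 genes the lowest wt value was less than 2.2 times the highest *tulp1*-dKO value. The closest were *eno1b* at 2.01, *pdha1b* at 2.02, *hs3st3b1a* and *znrf2b* at 2.03 and *si:dkey-193p11.2* at 2.04. Just outside were 23 genes with ratios from 1.8 to 2, among them *CR762431.1* at 1.98, *pus7l*, a pseudouridine synthase gene, at 1.97, *si:ch211-207l14.1* at 1.96, *pdk2b*, a kinase that inhibits pyruvate dehydrogenase, at 1.95 and *ubtd1a* at 1.94. On the side of the level, *si:ch1073-340i21.3* was just inside with a lowest wt value of 5.05 TPM, and 5 genes with lowest wt values from 4.53 to 4.88 TPM were just outside.

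Position in the genome was not used by the rule. By NCBI gene number, name or synonym, 50 of the 72 matched a gene on a chromosome of the RefSeq annotation of assembly GRCz12tu. This is not the assembly used for the counting, so only chromosomes and gene order are given. The 50 genes lay on 20 chromosomes, with at most 5 on a chromosome, on chromosome 2, which holds 4.73% of the listed genes. *tulp1b* is on chromosome 6, where *eno1b*, *frs3* and *faimb* also lie, at 253, 256 and 689 protein-coding genes from it. *tulp1a* had no match. *frs3* and *eno1b*, 3 positions apart, were the only lower genes within 10 positions of each other.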

How the data were processed

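RNA-seq of dissected zebrafish heads at 4 dpf was analysed from 3 wt and 3 *tulp1*-dKO samples. The authors mapped reads to GRCz11 with HISAT2, counted them with RSEM and converted the counts to TPM, the unit of all deposited values. The values summed to 945666 to 948860 TPM per sample. Depth and counting error are not known from TPM, so precision came from the spread between samples. If these did not come from separate clutches, the p-values leave out the spread between clutches. If they came from 1 pool of larvae, the p-values measure technical spread alone. DESeq2, which the authors ran on read counts, was not used. Genes averaging 0.5 TPM or more were fitted in R 4.3.3 on log2(TPM + 0.1) by limma 3.58.1, using lmFit, a trended eBayes and Benjamini-Hochberg adjustment, a scale that understates changes of low genes. Python 3.11.15 with matplotlib 3.10.9, numpy 2.4.6 and pandas 2.3.3 served for tables and plots, and the fit was tested on simulated data.

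The lower genes, their grouping and the gene lists were chosen with earlier results of these data known. The lower genes were chosen by this contrast, so their calls in limma are given as a description and not as tests. Named by rule were the 30 with the highest wt mean, the 15 with the lowest ratio, genes next to a threshold, relatives by name, and neighbours. All others with a symbol are also named, and were chosen after their values were seen, as were the genes of the photoreceptor list and the neighbouring genes given with values. Of the listed rows, 80 had no gene name, and 1309 shared a name and were kept apart. Alternatives were other thresholds and pseudocounts, filters, median ratio scaling, values summed by name, a replicate block and each sample left out. Sequences and promoter motifs were not analysed here.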

Additional observations from a re-analysis of the deposited data

How the results depend on the processing

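The rule took 120 genes at a lowest wt value of 2 TPM and 140 at a ratio of 1.5. Both settings are looser, so they hold all 72 lower genes by construction. Of the 72, the stricter settings left 55 at a lowest wt value of 10 TPM and 34 at a ratio of 3. Leaving out each sample in turn gave 82 to 127 genes, the highest without wt sample 3. Fewer values had to meet the rule in each of these cases. Why the count was highest without wt sample 3 was not tested. The median log2 difference of −2.24 was −2.05 with a pseudocount of 0.5 TPM and −1.95 with 1 TPM, and between −2.27 and −2.08 without each sample. Over all genes, the 219 lower and 83 higher calls of limma became 75 to 183 and 22 to 87 without each sample, and the 5 lower calls of the photoreceptor list became 2 to 6. The cause was not tested. With the replicate number as a block there were 104 lower and 30 higher calls over all genes and 3 lower calls in the photoreceptor list. Samples of the same number deviated together only weakly (r = 0.029, 0.031 and 0.032, each the highest for its own number, against at most −0.01 for other numbers), and the numbers were not taken as a pairing. For 46 named genes that did not meet the rule, 519 of 549 values under the alternatives stayed on their side of the threshold, 23 lost the call and 7 gained it. No called value changed sign, while uncalled values near 0, such as those of *pdha1a* and *slc1a2b*, did under some alternatives. The planned count of promoter motifs was not run. TPM values hold no depth, so low levels such as those of *smc1a* and *cntn3a.2* in *tulp1*-dKO carry an unknown counting error.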

Other observations

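Genes next to the lower genes in RefSeq gene order were compared as values that the rule did not use. For 46 of the lower genes the list held 77 adjacent protein-coding genes that were not among them. Of the 72 tested, 3 were called lower by limma and 0 higher, where 0.96% of all genes were called lower. Their median log2 difference was 0.02. An unadjusted p no higher than 0.05 was found for 11, and the share of all genes at this p was not counted. Beside *entpd3*, *gask1a*, whose wt level lay below the limit of the rule, was at 4.18, 3.91 and 4.14 TPM in wt heads and 0.29, 0.48 and 0.51 TPM in *tulp1*-dKO heads, a log2 difference of −3.01 (SE 0.28, adjusted p = 0.00368 from limma), and it was called under all 12 alternatives (adjusted p 0.00213 to 0.0399). Beside *smc1a*, *ribc1*, a gene of ciliary microtubules, was at 13.6, 10.8 and 12.3 TPM in wt against 4.65, 6.16 and 5.78 TPM in *tulp1*-dKO, a log2 difference of −1.13 (SE 0.15, adjusted p = 0.0187 from limma). Its call was lost without any of wt samples 1, 2 and 3 or *tulp1*-dKO sample 2 (adjusted p = 0.0907, 0.0517, 0.0531 and 0.0554), and with a replicate block (0.0943). Beside *zgc:171679*, *BX649490.4* was at 1.38, 2.13 and 3.76 TPM in wt but listed at 0, 0.17 and 0.05 TPM in *tulp1*-dKO (adjusted p = 0.0306 from limma). Its call was lost without any 1 of the 6 samples, with adjusted p from 0.057 to 0.115, and with a replicate block (0.085).

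Clone-named genes can have neighbours from the same genomic clone, which share the clone part of the name. For 14 of 30 such lower genes the list held 39 further entries from the same clone. Of the 20 tested, 0 were called lower and 0 higher by limma, where 0.96% and 0.364% of all genes were. At these shares a count of 0 among 20 does not show that the clone neighbours were unchanged. An unadjusted p no higher than 0.05 was found for 5 of them, and the share of all genes at this p was not counted. The median log2 difference of the 20 was −0.26, against 0.05 over all genes.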
